A study of Mus musculus with 22 samples.

Results

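The livers of mice given diclofenac daily for 14 days were compared with those of mice given saline for the same time. Diclofenac, a pain and inflammation medicine, blocks the cyclooxygenases and can injure the liver. The 10 arrays of day 14 among the 22 of the study were taken by their labels, 5 from diclofenac treated and 5 from saline treated mice, and all genes were examined. The animals were C57BL6 males, 8 weeks old, injected intraperitoneally with diclofenac sodium at 30 mg/kg or with saline, and each day of sampling had saline animals of its own. The labels state 5 mice per group and the methods a larger group, and whole liver RNA of each mouse was measured on 1 array.

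The liver answers inflammation with the acute phase response. Cytokines of the interleukin-6 family act through STAT3 and those of the interleukin-1 family through NF-kB and C/EBP factors, and hepatocytes then secrete more of a set of plasma proteins, such as serum amyloids and orosomucoids. During this response, genes of drug metabolism and fatty acid oxidation are often expressed at a lower level.

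Signals are those of Affymetrix Mouse 430 2.0 arrays, which the authors computed with MAS5 and scaled to a common level, so that they are intensities without a physical unit. The median signal of an array was 77.1 to 89.9 at day 14, and a value well below it carries little information. Of 18194 genes with a probe set of their own, 11900 had a signal above the array median in at least 3 arrays and were tested. The filter took no account of groups, so a gene could pass it through the livers of 1 group alone. The 8 hepatocyte markers tested summed to 475762 to 627346 in saline livers and to 517854 to 701046 in diclofenac treated livers, so that the tissue label was borne out. RNA quality, read as how far control probe sets at the 3' end exceed those at the 5' end in log2 units, stood at 0.74 ± 0.049 in diclofenac livers against 0.62 ± 0.063 in saline livers (SD, n = 5 each, two-sided exact permutation test, p = 0.0238). Hybridisation controls were at 11.96 and 11.75 on the log2 scale (p = 0.0397, two-sided exact permutation test, 5 against 5), and the part of these differences in the results was not tested. The number of arrays limits the precision.

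One liver stood apart. Replicate 3 of the diclofenac group lay at least 1 log2 unit above all other 9 arrays in 515 genes and at least 1 unit below them in 581 genes, whereas the other arrays did so in 0 to 2 and 22 to 105 genes. Its correlation with the other day 14 arrays was 0.866 to 0.884, against medians of 0.91 to 0.917 for the rest. Counts and list medians are therefore given with all 10 arrays and with the 9 that remain without it, and single genes by the 9-array fit, with the 10-array difference added for those described in full.

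**Figure D1:**
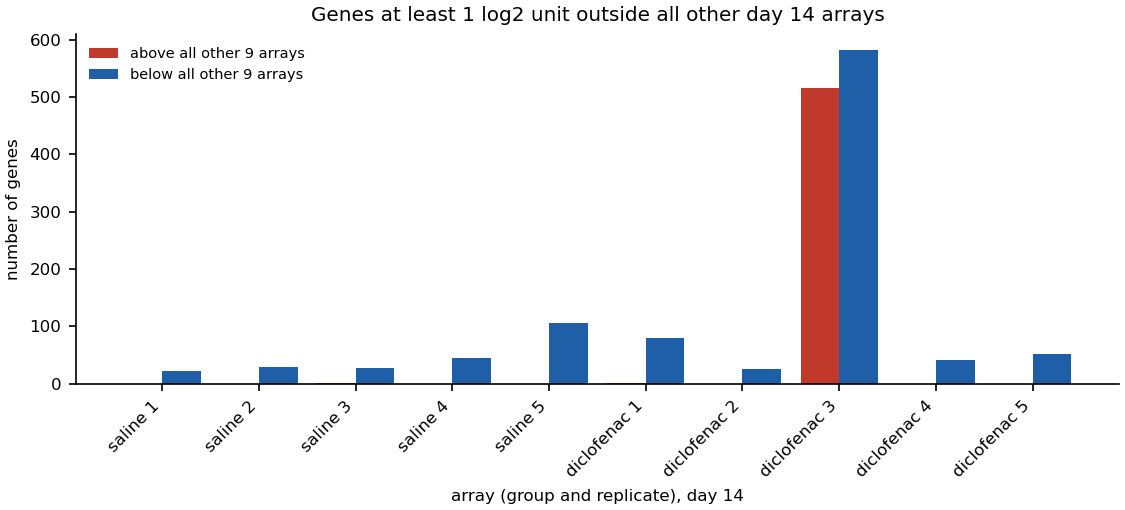
Number of genes (vertical axis) in which each day 14 array (horizontal axis) lies at least 1 log2 unit above or below all other 9 arrays. Diclofenac replicate 3 reaches 515 genes above and 581 below, and no other array exceeds 2 above and 105 below.

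With all 10 arrays no gene passed the test (0% of 11900, limma, smallest adjusted p = 0.0668), although 1289 genes had an unadjusted p under 0.05. Without replicate 3, 123 genes changed (1.03% of 11900, limma, adjusted p under 0.05), of which 80 rose (0.672%) and 43 fell (0.361%), and 1567 had an unadjusted p under 0.05. Of the 80 genes that rose, 29 did so by at least 2-fold, and of the 43 that fell, 11. In 4 of the 80, fewer than 3 saline livers were above the array median, and in 2 of the 43, fewer than 3 diclofenac livers. Such genes passed the filter only with the livers of the group in which they were high. The 123 genes had the same sign with all 10 arrays, where 98 of them had an unadjusted p under 0.01. In 101 of them replicate 3 lay with its group, so that all 5 diclofenac livers were above (67 genes) or below (34 genes) all 5 saline livers. Over all genes tested, 257 were above (2.16%) and 195 below (1.64%) in this way. With each array centred on its own median, 75 genes changed, of which 60 rose and 15 fell. The calls depend on the model: with variances moderated without a trend on signal, 0 genes passed (smallest adjusted p = 0.0547, limma, 1460 with an unadjusted p under 0.05), and without one further array between 28 (diclofenac replicate 1) and 108 genes (saline replicate 2). Of the 123 genes, 23 passed in each of the 9 fits that left out a further array, 17 of them higher and 6 lower. Among the genes named below, Fga, Fn1, Kng1 and Slc30a5 passed in none of these 9 fits, and Atp5o, C8a, Csad, Gdf10, Mt1, Proz, Saa2, Serpinf2 and Slc22a5 in 1. In what follows, rose and fell refer to the 9-array test, and lists of genes are described by counts and medians beside a median of -0.015 with 10 arrays and -0.001 with 9 arrays over all genes tested.

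Acute phase genes made up 16 of the 80 genes that rose. All 24 acute phase genes tested had an unadjusted p under 0.05 in both fits, 16 rose and none fell, and 18 were higher in all 5 diclofenac livers than in any saline liver. The list was written with earlier results of these data known, so these counts describe its members and are no independent test. The median log2 difference of the list was 1.20 with 10 arrays and 1.05 with 9. The sole member below 0 was Hamp, described further on.

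The promoters of the acute phase genes are shown because the transcription factors of this response bind short motifs near the start site. For the 16 genes that rose, 12 had a promoter in the RefSeq table for GRCm38.p6, taken here as the 250 bases before the start of the gene. The C/EBP motif TTGCNNAA, searched on both strands, was found in 7 of the 12 (58.3%; Cp, Fga, Lcn2, Orm2, Orm3, Saa2 and Saa4), in 9.33% of the tested genes with a promoter and in 10.8% of all 27025 genes. Of all genes that rose and had a promoter, 15 of 67 held it (22.4%), and of those that fell, 4 of 39 (10.3%). Orm2 and Orm3 are both orosomucoids and Saa2 and Saa4 both serum amyloids, so the 7 matches need not be independent. The STAT motif TTCNNNGAA was found in 3 of the 12 (25.0%; Apcs, Fga and Itih4) and in 7.15% of the tested genes, and the NF-kB motif GGGANTTTC in none of the 12 and in 0.912% of the tested genes. These matches are descriptions of letters in a window and not binding sites. The promoters of 4 genes with large rises are given, each 5' to 3' on the strand of its gene with the motif in capitals. That of Apcs lies at chr1:172895055-172895304 on the minus strand and holds the STAT motif, that of Saa2 at chr7:46751583-46751832 on the plus strand, that of Lcn2 at chr2:32387740-32387989 on the minus strand and that of Orm2 at chr4:63362199-63362448 on the plus strand, and these hold the C/EBP motif.
Apcs: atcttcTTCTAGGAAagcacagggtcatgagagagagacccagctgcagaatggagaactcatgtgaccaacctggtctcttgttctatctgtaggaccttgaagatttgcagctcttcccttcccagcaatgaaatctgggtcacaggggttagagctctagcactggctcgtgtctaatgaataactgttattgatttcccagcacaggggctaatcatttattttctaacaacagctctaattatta
Saa2: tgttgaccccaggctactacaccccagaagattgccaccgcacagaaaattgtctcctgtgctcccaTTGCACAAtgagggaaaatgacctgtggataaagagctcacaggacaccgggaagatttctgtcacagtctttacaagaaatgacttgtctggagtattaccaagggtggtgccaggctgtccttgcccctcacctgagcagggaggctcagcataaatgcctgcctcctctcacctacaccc
Lcn2: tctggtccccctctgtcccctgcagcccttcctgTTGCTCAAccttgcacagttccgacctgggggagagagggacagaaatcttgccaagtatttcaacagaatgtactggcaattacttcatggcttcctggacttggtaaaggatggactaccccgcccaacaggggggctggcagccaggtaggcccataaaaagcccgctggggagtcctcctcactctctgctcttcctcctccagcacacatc
Orm2: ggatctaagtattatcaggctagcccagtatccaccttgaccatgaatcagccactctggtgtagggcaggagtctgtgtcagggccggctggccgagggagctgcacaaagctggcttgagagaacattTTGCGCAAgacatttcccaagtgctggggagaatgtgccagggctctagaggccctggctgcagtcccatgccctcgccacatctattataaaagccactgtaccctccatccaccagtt

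Apcs encodes serum amyloid P component, a pentraxin that binds microbes and debris and is the classical acute phase protein of the mouse. Its signals were 7013, 4174, 5449, 3707 and 4794 in saline livers 1 to 5 and 31402, 24852, 92562, 13729 and 16352 in diclofenac livers 1 to 5. Each diclofenac liver was above each saline liver, and replicate 3 was the highest. Without replicate 3 the gene rose 4.17-fold (log2 difference 2.06, standard error 0.24, adjusted p = 0.00541, limma), and with it the log2 difference was 2.5 (0.43, adjusted p = 0.0786). Two-sided exact permutation tests gave p = 0.0079 with 10 and with 9 arrays, the smallest value that 5 against 5 or 4 against 5 livers allow. The largest rises were named only among genes whose groups did not overlap. These exact p-values therefore follow from that choice and add no separate support.

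Saa2, a serum amyloid A of high density lipoprotein, had signals of 49011, 3170, 847, 694 and 1416 in saline livers and 97675, 55740, 107095, 63367 and 68461 in diclofenac livers. The groups did not overlap, but saline liver 1 came close to the lowest diclofenac liver. The rise was 26.4-fold without replicate 3 (log2 difference 4.72, standard error 0.97, adjusted p = 0.0413, limma), and the difference with all 10 arrays was 4.84 (0.95, adjusted p = 0.105). Without saline liver 1 as well, the rise was 54.7-fold (adjusted p = 8.87e-05, limma), and without any other single array of the 9 the gene no longer passed. Its probe set can also bind transcripts of related sequence, and the nearly identical Saa1 had a log2 difference of 2.48 (0.58) that missed the threshold (adjusted p = 0.0715, limma), with signals of 68211 in saline liver 1 and 5679 to 20492 in the other saline livers.

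Lcn2 encodes lipocalin 2, which binds the siderophores by which bacteria take up iron. Its signals were 16436, 5222, 1907, 1727 and 1465 in saline livers and 42654, 38268, 110278, 35310 and 50377 in diclofenac livers. It rose 12.4-fold (log2 difference 3.63, standard error 0.57, adjusted p = 0.0181, limma), and with all 10 arrays its difference was 3.91 and its adjusted p of 0.0668 the smallest of any gene, shared with others. Orm2, an orosomucoid that carries drugs and lipids in plasma, was at 17958, 4941, 714, 837 and 643 in saline livers and at 49862, 24839, 85774, 25396 and 35219 in diclofenac livers, a rise of 4.0 on the log2 scale (standard error 0.84, adjusted p = 0.0441). With all 10 arrays the difference of Orm2 was 4.28 (adjusted p = 0.105), and without replicate 3 and saline liver 1 it was 4.79. Orm2 passed in 2 of the 9 fits without a further array, those without saline liver 1 or 2. For Saa2, Lcn2 and Orm2 alike, saline liver 1 was the highest of its group. Over the whole acute phase list saline liver 1 lay 0.83 above the saline mean on the log2 scale, saline livers 2 to 5 between -0.36 and 0.12, and diclofenac livers between 0.98 and 2.55. With the other 9 arrays and replicate 3 kept, leaving out saline liver 1 moved the count of genes that passed from 0 to 6.

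**Figure D2:**
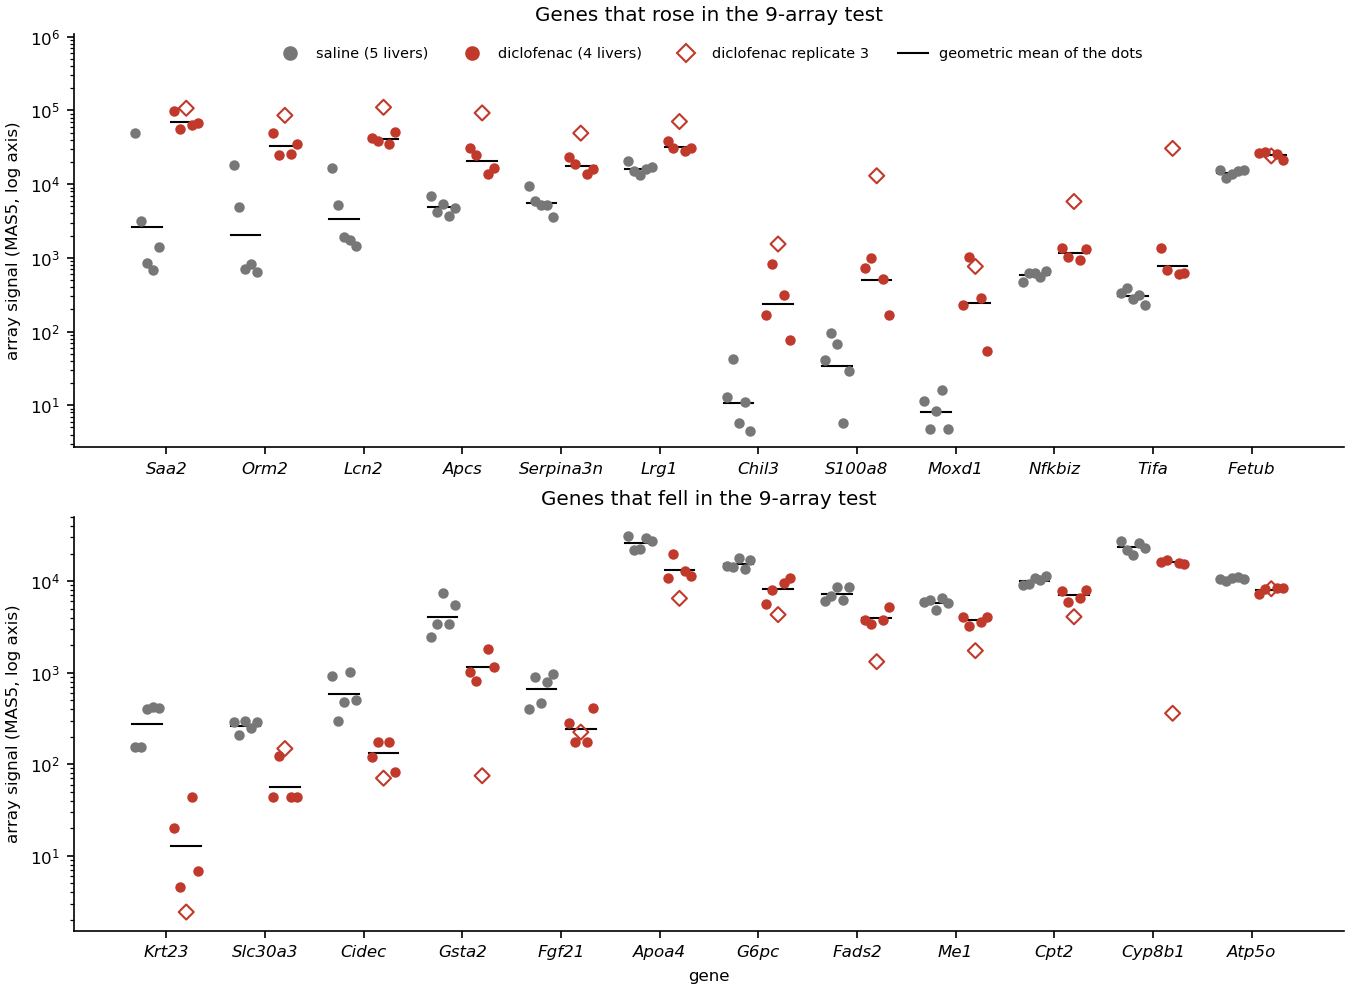
Array signal of each day 14 liver (log axis) for 12 genes that rose and 12 that fell in the 9-array test. Grey dots are saline livers, red dots diclofenac livers, open diamonds diclofenac replicate 3 and lines geometric means of the dots. Saline liver 1 is the highest saline dot for Saa2, Orm2 and Lcn2, and in Cyp8b1 replicate 3, at 360, lies far below its group.

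Further acute phase genes rose. Serpina3n, a serine protease inhibitor, rose by 1.65 on the log2 scale (adjusted p = 0.01002, limma), Lrg1, a leucine-rich glycoprotein induced by interleukin-6, by 0.98 (adjusted p = 0.00777) and Saa4, the constitutive serum amyloid A, by 1.09 (adjusted p = 0.0159). Orm3 rose by 2.95 and Orm1 by 1.05 (adjusted p = 0.0182 and 0.0333). Lbp, which hands lipopolysaccharide to its receptors, rose by 0.49 (adjusted p = 0.0393). Others of the list, chosen after their values were seen, were Prg4 (1.68), Fgl1 (1.40), Itih4 (1.04), Cp, the copper carrier ceruloplasmin (0.78), and Itih3 (0.76), with adjusted p between 0.0202 and 0.0292. Crp, the C-reactive protein gene, which is of small range in mice, was at 19234 to 24059 in saline livers and 25415 to 29411 in diclofenac livers (log2 difference 0.35, adjusted p = 0.0988, limma), so that its groups did not overlap although the test was missed.

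Complement and coagulation genes, other plasma proteins made by hepatocytes, lay higher by smaller steps. Of 24 complement genes tested, 23 had a log2 difference above 0 in the 9-array fit and 22 with 10 arrays, 15 and 14 had an unadjusted p under 0.05 and 3 rose, with a list median of 0.41 with 10 arrays and 0.38 with 9. Hc, complement component C5, had signals of 22902, 23069, 21901, 20582 and 22476 in saline livers and 39192, 34514, 24672, 32750 and 34170 in diclofenac livers. The rise was 0.66 (standard error 0.08, adjusted p = 0.00541, limma), or 0.56 (0.12, adjusted p = 0.138) with replicate 3, which was the lowest diclofenac liver here. C4bp, an inhibitor of the classical pathway, rose by 0.75 (adjusted p = 0.01002) and C8a, a part of the membrane attack complex, by 0.47 (adjusted p = 0.0467).

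Of 27 coagulation and fibrinolysis genes, 24 were above 0 with 9 arrays and 21 with 10, 14 and 12 had an unadjusted p under 0.05 and 5 rose, and the median was 0.37 with 10 arrays and 0.25 with 9. Serpina10, the protein Z dependent inhibitor of factor X, was at 5089 to 6948 in saline livers and 8325 to 18333 in diclofenac livers without replicate 3, where it was 45631, and it rose by 1.02 (standard error 0.19, adjusted p = 0.0292, limma), against 1.40 with 10 arrays (0.37, adjusted p = 0.231). Proz, its cofactor protein Z, rose by 0.50 (adjusted p = 0.0471). Kng1, kininogen, rose by 0.47, Fga, the fibrinogen alpha chain, by 0.46, and Serpinf2, the inhibitor of plasmin, by 0.43 (adjusted p = 0.0491, 0.0495 and 0.0363).

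Fetub, fetuin-B, is a protease inhibitor of plasma and was written into the list of proteins that fall in the acute phase. Its signals were 15354, 12310, 13944, 14942 and 15323 in saline livers and 26623, 27286, 24126, 25506 and 21468 in diclofenac livers. The groups were well apart and replicate 3 lay within its group. Fetub rose 1.75-fold (log2 difference 0.81, standard error 0.10, adjusted p = 0.00541, limma), against 0.80 with all 10 arrays (0.10, adjusted p = 0.0668). The other 7 genes of that list did not pass, and the list median was 0.15 with 10 arrays and 0.14 with 9, or -0.04 and 0.01 after quantile normalization.

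Among signalling genes, few passed. Of 22 genes of the interleukin-1 family and NF-kB, 3 rose and none fell, and the median was 0.64 with 10 arrays but 0.24 with 9. Nfkbiz, a nuclear partner of NF-kB, was at 475, 632, 632, 556 and 667 in saline livers and at 1380, 1012, 5816, 944 and 1331 in diclofenac livers, a rise of 0.97 (standard error 0.14, adjusted p = 0.0108, limma), against 1.44 with 10 arrays (0.41, adjusted p = 0.246). Tifa, an adaptor upstream of NF-kB, was at 227 to 394 in saline livers and 600 to 1373 in diclofenac livers without replicate 3, where it reached 30528, and rose by 1.35 (adjusted p = 0.0229). Il1r1, the receptor of interleukin-1, rose by 0.96 (adjusted p = 0.0361), but its other probe set had a log2 difference of -0.25.

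None of the 20 genes of the interleukin-6 receptors, Stat3 and its feedback passed, and the median was 0.38 with 10 arrays and 0.11 with 9. Socs3, the feedback inhibitor of STAT3 signalling, was at 218, 628, 646, 602 and 1074 in saline livers and at 4247, 1107, 24014, 604 and 2620 in diclofenac livers. Replicates 1, 2, 3 and 5 were above all saline livers and replicate 4 was among them, and the difference of 1.55 had a standard error of 0.53 (adjusted p = 0.218, limma, 9 arrays), against 2.32 (0.83, adjusted p = 0.352) with 10 arrays. Stat3 itself was at 1983 to 3104 in saline and 2618 to 10311 in diclofenac livers (adjusted p = 0.163 with 9 arrays and 0.351 with 10, limma). Il6 was below the filter, with signals of 0.717 to 25.5 in saline livers and 720 in replicate 3. That last value is of the liver that stood apart and does not describe the diclofenac group.

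None of the 10 CXC chemokines passed. Cxcl1, a neutrophil attractant, was at 257, 395, 239, 250 and 326 in saline livers and at 5865, 490, 39943, 496 and 2715 in diclofenac livers. Each diclofenac liver lay above each saline liver (two-sided exact permutation test, 5 against 5, p = 0.0079, the smallest possible), but the values within the diclofenac group spanned such a range that limma's adjusted p was 0.280 with 10 arrays and 0.117 with 9.

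Markers of leukocytes were higher in part. In bulk tissue, more or fewer cells of a type and more or less RNA per cell cannot be told apart. Of 10 neutrophil markers tested, 9 lay above 0 in the 9-array fit and 10 with all arrays, and 1 rose. The median was 1.12 with 10 arrays and 0.80 with 9. A marker weak in saline livers could pass the filter through the diclofenac livers alone, so these counts and medians may be tilted upward. The summed signal of all 14 neutrophil markers on the array, tested or not, was 506 to 955 in saline livers, 1009 to 3186 in diclofenac livers and 25857 in replicate 3. S100a8, a calgranulin subunit stored in neutrophils, was at 40.8, 97.0, 68.1, 5.80 and 29.2 in saline livers and at 728, 988, 13001, 522 and 167 in diclofenac livers, a rise of 3.88 (standard error 0.73, adjusted p = 0.0309, limma). Its difference was 4.82 with 10 arrays (1.05, adjusted p = 0.137) and 3.24 without replicate 3 and saline liver 4. Its partner S100a9 had a difference of 2.67 (0.63, adjusted p = 0.0755). The saline livers held weak signals of both genes, around the array median or under it, and the size of the rise is uncertain.

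Of 17 monocyte and macrophage markers on the array, 12 passed the filter, and the same limit applies to them. All 12 lay above 0, and 1 rose. This was Chil3, a chitinase-like protein of activated macrophages and neutrophils, at 12.9, 41.9, 5.76, 11.2 and 4.44 in saline livers and at 168, 814, 1541, 310 and 76.2 in diclofenac livers (log2 difference 4.45, standard error 0.81, adjusted p = 0.0264, limma). With all 10 arrays its difference was 4.99 (adjusted p = 0.0786), and without diclofenac replicates 2 and 3 it was 3.86 and did not pass (adjusted p = 0.125). All saline values were below the array median, so that Chil3 passed the filter only through the diclofenac livers. The 10 Kupffer cell markers tested all lay above 0 and none passed, with sums of 9068 to 16700 in saline livers, 12869 to 17637 in diclofenac livers and 40281 in replicate 3, and with a median of 0.74 with 10 arrays and 0.42 with 9. T cell, NK cell, dendritic cell and B cell lists had medians between -0.24 and 0.08 in the 9-array fit and no gene that passed. Few of their markers on the array were tested: 4 of 14, 2 of 10, 3 of 9 and 8 of 12. These medians therefore say little about such cells.

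Stellate cell markers lay lower. Of 11 tested, 10 were below 0 in both fits, 9 had an unadjusted p under 0.05 with 9 arrays and 4 with 10, and 1 fell. The list median was -0.41 with 10 arrays and -0.59 with 9, and the sums were 15003 to 22380 in saline livers, 8465 to 15772 in diclofenac livers and 21793 in replicate 3, which lay with the saline livers. Ecm1, extracellular matrix protein 1, was at 1777 to 2645 in saline livers and 1005 to 1585 in diclofenac livers and fell by 0.77 on the log2 scale (standard error 0.15, adjusted p = 0.0329, limma), against -0.72 with 10 arrays (0.15, adjusted p = 0.118). Of 26 genes of collagens, laminins and matrix proteases, none fell and 1 rose, and the median was 0.27 with 10 arrays and 0.01 with 9. Genes that fell outside both lists, chosen after their values were seen except for Igfbp7, were Lhfp, of a tetraspan membrane protein (-0.83), Gdf10, a ligand of the TGF-beta family (-0.65), Igfbp7, a secreted binding protein (-0.61), and Prelp, a matrix proteoglycan (-0.54), with adjusted p between 0.0257 and 0.0427, of which Igfbp7 and Prelp had another probe set at 0.00 and 0.35. Dcn, the matrix proteoglycan decorin, was at 5624 to 7275 in saline and 2759 to 8975 in diclofenac livers and did not pass (adjusted p = 0.213, 9 arrays). Fn1, fibronectin, which hepatocytes also secrete into plasma, rose by 0.53 (adjusted p = 0.0417, limma).

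**Figure D3:**
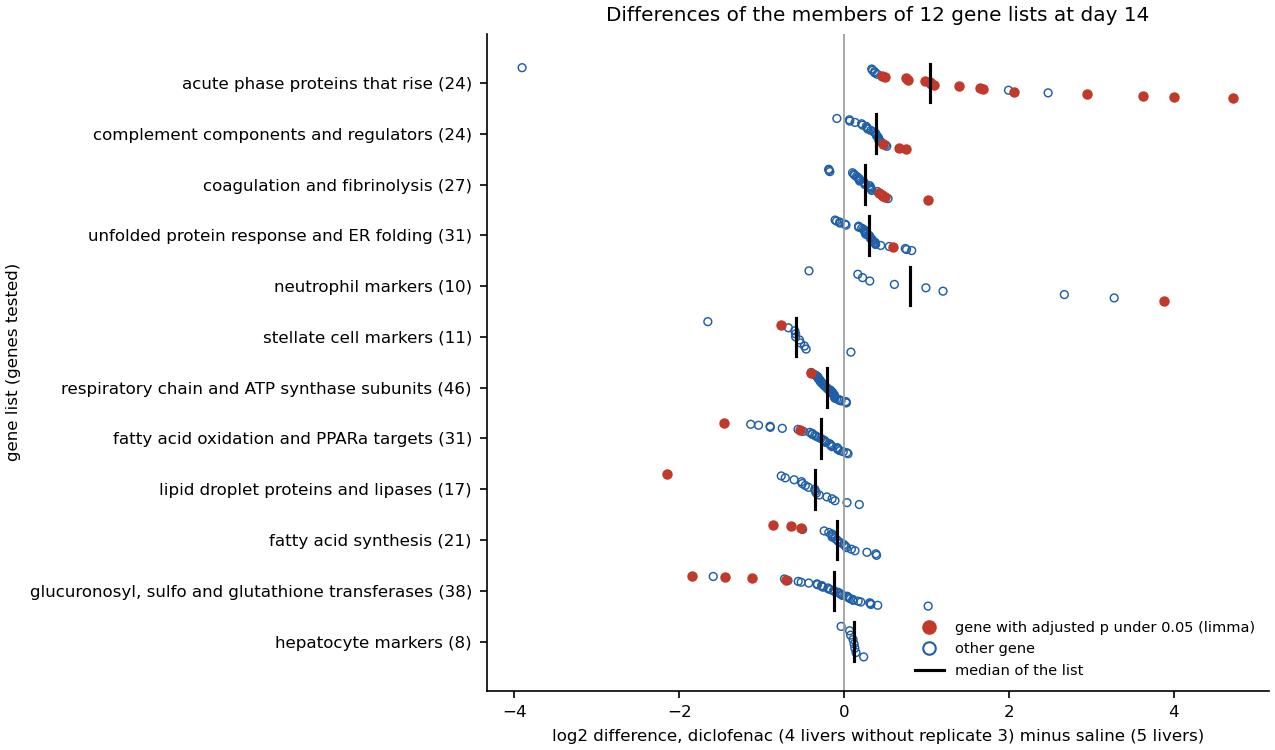
Log2 difference between the 4 diclofenac livers without replicate 3 and the 5 saline livers (horizontal axis) for each tested gene of 12 lists (vertical axis, number of genes in brackets). Filled red dots passed the test and bars are list medians, which reach 1.05 for acute phase genes and -0.59 for stellate cell markers.

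Of 12 metallothioneins and zinc transporters tested, 2 rose and none fell, and the median was 0.35 with 10 arrays and 0.24 with 9. Mt1, a zinc and copper binding metallothionein, rose by 0.80 (standard error 0.16, adjusted p = 0.0391, limma), from 25095 to 46665 in saline livers to 58184 to 79215 in diclofenac livers and 127497 in replicate 3, with a difference of 1.0 over 10 arrays (adjusted p = 0.161). Slc30a5, which moves zinc into the secretory pathway, rose by 0.47 (adjusted p = 0.0479). Of 14 magnesium transporters 1 rose, Slc41a2, by 1.59 (adjusted p = 0.0391). Slc30a3, a zinc transporter best known from synaptic vesicles that the written list did not hold, fell 4.66-fold from 287, 210.0, 293, 251 and 290.2 in saline livers to 43.7, 124, 148, 44.1 and 43.4 in diclofenac livers (log2 difference -2.22, standard error 0.31, adjusted p = 0.01002), and its difference with 10 arrays was -1.94 (0.37, adjusted p = 0.105). The saline signals were above and 3 of the 5 diclofenac signals below the array median.

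Hamp encodes hepcidin, the liver hormone that lowers iron export into blood and that interleukin-6 is known to induce. Its signals were 57193, 41914, 53605, 44929 and 57643 in saline livers and 14409, 209, 93640, 3090 and 13968 in diclofenac livers. Without replicate 3 all diclofenac livers were below all saline livers, whereas replicate 3 was the highest of the 10. The log2 difference was -3.91 (standard error 0.96) with 9 arrays and missed the threshold (adjusted p = 0.0855, limma, exact permutation p = 0.0079, the smallest that 4 against 5 allow), and with 10 arrays it was -2.95 (1.23, adjusted p = 0.429). Id1, a target of the BMP signal that also drives Hamp, fell by 1.14 (adjusted p = 0.0251), from 320 to 631 in saline livers to 157 to 243 in diclofenac livers, with replicate 3 at 2224. Scara5, a scavenger receptor that binds ferritin, was at 324, 125, 213, 265 and 172 in saline livers and at 2163, 1268, 9801, 804 and 1089 in diclofenac livers and rose by 2.58 (standard error 0.30, adjusted p = 0.00541), against 3.17 with 10 arrays (0.58, adjusted p = 0.0869), but its other probe set had a difference of -0.09.

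Other genes with large rises have varied roles. Moxd1, a copper-dependent monooxygenase-like protein, was at 11.4, 4.79, 8.28, 15.95 and 4.82 in saline livers and at 233, 1026, 765, 289 and 54.2 in diclofenac livers, so that a signal far below the array median rose in each diclofenac liver (log2 difference 4.93, standard error 0.82, adjusted p = 0.0202, limma). No saline liver reached the array median, so the gene passed the filter only through the diclofenac livers in which it was high. With all 10 arrays the difference of Moxd1 was 5.26 (adjusted p = 0.0668). Without replicate 3 and a further array it was 4.25 (without replicate 2, adjusted p = 0.113) to 5.66 (without replicate 5). Atp11a, a phospholipid flippase, rose by 2.12 (adjusted p = 0.0202) and Slc3a1, a subunit of the cystine transporter, by 1.79 (adjusted p = 0.0292). Enho, the gene of the secreted peptide adropin, was at 256 to 447 in saline livers and 708 to 1269 in all 5 diclofenac livers and rose by 1.44 (standard error 0.19, adjusted p = 0.00777), against 1.37 with 10 arrays (0.19, adjusted p = 0.0668), although its 4 probe sets ranged from -0.28 to 1.44. Qsox1, an oxidase that forms disulfide bonds in secreted proteins and was chosen after its values were seen, had the smallest adjusted p of the 9-array fit (0.00485, log2 difference 0.87, standard error 0.09), with signals of 4518 to 5167 in saline livers and 7622 to 9589 in diclofenac livers, while its 4 probe sets ranged from -0.32 to 0.87. Genes of protein folding in the endoplasmic reticulum, where secreted proteins mature, lay above 0 in 27 of 31 cases with 9 arrays and 29 with 10, 17 and 15 with an unadjusted p under 0.05, with a median of 0.39 with 10 arrays and 0.30 with 9. A single member passed, the chaperone Dnajb9, which rose by 0.59 (adjusted p = 0.0229).

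Single genes of lipid and glucose metabolism fell, and the lists differed among themselves. Of 20 apolipoprotein genes, 14 lay above 0 with 9 arrays (median 0.07, or 0.05 with 10). After quantile normalization 8 did so with 9 arrays (median -0.05) and 6 with 10 (median -0.09), so that the list had no stable direction. Of 27 genes of glycolysis, gluconeogenesis and glycogen, 14 lay above 0 with 9 arrays and 11 with 10. In each of these lists 1 gene fell and none rose. The 21 sterol synthesis genes had a median of 0.36 with 10 arrays and 0.06 with 9 and none passed. Cidec, a protein that lets lipid droplets fuse, was at 929, 293, 480, 1024 and 508 in saline livers and at 121, 175, 70.4, 174 and 82.0 in diclofenac livers. It fell 4.43-fold (log2 difference -2.15, standard error 0.35, adjusted p = 0.0182, limma), against -2.33 with 10 arrays (0.37, adjusted p = 0.0668). In both fits 15 of the 17 lipid droplet and lipase genes tested lay below 0, with a median of -0.46 with 10 arrays and -0.36 with 9. Krt23, a type I keratin and the gene with the largest fall, was at 154, 155, 403, 419 and 412 in saline livers and at 20.2, 4.55, 2.43, 43.4 and 6.86 in diclofenac livers (log2 difference -4.44, standard error 0.64, adjusted p = 0.0105). The difference was -4.92 with 10 arrays (adjusted p = 0.0668) and -5.02 without diclofenac replicates 3 and 4. Every diclofenac value was below the array median, which makes the size of this fall uncertain. Krt23 thus passed the filter only through the saline livers.

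Of 31 genes of fatty acid oxidation and other PPARa targets, 29 lay below 0 in the 9-array fit and 30 with 10 arrays, 16 and 14 had an unadjusted p under 0.05 and 2 fell, with a median of -0.44 with 10 arrays and -0.28 with 9. Fgf21, a fasting hormone of the liver, was at 404, 902, 471, 788 and 979 in saline livers and at 279, 176, 224, 173 and 410 in diclofenac livers. Its groups overlapped by 1 liver, and it fell by 1.46 (standard error 0.31, adjusted p = 0.0479, limma), against -1.48 with 10 arrays (0.30, adjusted p = 0.118). Cpt2, which completes the carnitine shuttle of mitochondria, fell by 0.53 (adjusted p = 0.0394), but its second probe set had a difference of 0.77. Ehhadh, of peroxisomal oxidation, and Acot1, a thioesterase, had differences of -0.42 and -0.90 and did not pass (adjusted p = 0.0582 and 0.0545). Slc22a5, the carnitine transporter, was at 3558 to 4131 in saline livers and 1628 to 2911 in diclofenac livers and fell by 0.75 (adjusted p = 0.0370). In the saline livers of days 1 and 3 of the study it was lower, at 836.5 to 952.8 and 1104 to 1182. The lowest value with diclofenac at day 14, 1628, still lay above the highest of either group on those days, 1506.

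Of 21 fatty acid synthesis genes, 3 fell and none rose. Me1, malic enzyme, was at 4855 to 6503 in saline and 3262 to 4098 in diclofenac livers and fell by 0.65 (standard error 0.10, adjusted p = 0.0182, limma), against -0.86 with 10 arrays (0.21, adjusted p = 0.179). Fads2, a desaturase, fell by 0.86 (adjusted p = 0.0202) and Elovl5, an elongase of polyunsaturated fatty acids, by 0.53 (adjusted p = 0.0202). A further elongase of that path, Elovl2, which was chosen after its values were seen, fell by 0.65 (adjusted p = 0.0275). The list median was -0.11 with 10 arrays and -0.09 with 9, so that these falls were not shared by most of its members.

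Apoa4, an apolipoprotein of gut and liver, was at 31212, 21615, 22414, 29296 and 27336 in saline livers and at 10863, 19647, 6480, 12890 and 11274 in diclofenac livers and fell 1.97-fold (log2 difference -0.98, standard error 0.17, adjusted p = 0.0233, limma), with a difference of -1.18 over 10 arrays (0.24, adjusted p = 0.118). G6pc, the glucose-6-phosphatase that releases glucose, fell by 0.91 (adjusted p = 0.0264), from 13467 to 17828 in saline livers to 5572 to 10808 in diclofenac livers. Ogdh, a subunit of the oxoglutarate dehydrogenase of the citric acid cycle, fell by 0.68 (adjusted p = 0.0292). Etnppl, a phospholyase of phosphoethanolamine, fell by 1.27 (adjusted p = 0.0350) and Csad, of taurine synthesis, by 1.04 (adjusted p = 0.0394).

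Subunits of the respiratory chain and ATP synthase showed small differences of one direction. Of 46 tested, 43 lay below 0 in both fits and 24 had an unadjusted p under 0.05 with 9 arrays and 26 with 10, and in 16 all 5 diclofenac livers were below all 5 saline livers, with a median of -0.27 with 10 arrays and -0.21 with 9. A single subunit passed. Atp5o, of the stalk of ATP synthase, was at 10450, 9958, 10927, 11053 and 10612 in saline livers and at 7305, 8137, 8265, 8372 and 8410 in diclofenac livers and fell 1.32-fold (log2 difference -0.40, standard error 0.07, adjusted p = 0.0292, limma), against -0.39 with 10 arrays (0.08, adjusted p = 0.123). Ndufa5 of complex I was next with -0.40 (0.09, adjusted p = 0.0550).

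Genes of drug metabolism did not move as one group. Cyp3a11, the main Cyp3a enzyme of mouse liver, was at 62932 to 84690 in saline livers and 67943 to 89816 in diclofenac livers without replicate 3, where it was 29642, and its difference was 0.02 with 9 arrays (standard error 0.12, adjusted p = 0.962, limma) and -0.25 with 10 (0.26, adjusted p = 0.732). Cyp2c29 had -0.02 (0.10, adjusted p = 0.965) and a signal of 5955 in replicate 3 against 16670 to 21058 in the others of its group. Of 25 genes of cytochrome P450 families 1 and 2, 1 rose and none fell, and none of the 11 genes of the Cyp3a and xenobiotic receptor list passed. The riser was Cyp2c70, which makes the muricholic acids of mouse bile, with 1.21 (standard error 0.20, adjusted p = 0.0182), and Cyp8b1, the 12-alpha-hydroxylase of bile acid synthesis, fell by 0.54 (adjusted p = 0.0333), from 19277 to 27629 in saline livers to 15494 to 17199 in diclofenac livers and to 360 in replicate 3.

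Conjugating enzymes were lower in part. Of 38 transferase genes tested, 4 fell and none rose, with a median of -0.44 with 10 arrays and -0.12 with 9. Gsta2, a glutathione transferase, was at 2480, 3388, 7355, 3419 and 5531 in saline livers and at 1008, 818, 74.9, 1833 and 1142 in diclofenac livers and fell by 1.84 on the log2 scale (standard error 0.30, adjusted p = 0.0182, limma), against -2.63 with 10 arrays (0.72, adjusted p = 0.232). Gsta4 fell by 1.45 (adjusted p = 0.0329) and Inmt, an N-methyltransferase, by 1.12 (adjusted p = 0.0333). Ugt2b1, a glucuronosyltransferase, fell by 0.71 (adjusted p = 0.0329), from 23212 to 27351 to 12496 to 20225, with 2691 in replicate 3. Of the carboxylesterases, Ces1e fell by 0.77 (adjusted p = 0.0199).

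The drug's own pathway showed no call. None of the 16 prostaglandin and leukotriene genes tested passed, and the median was 0.03 with 10 arrays and -0.05 with 9. Ptgs2, the inducible cyclooxygenase that diclofenac inhibits, was below the filter, at 49.96, 44.0, 6.21, 31.1 and 17.7 in saline livers and 1.96, 50.02, 91.4, 21.5 and 15.9 in diclofenac livers (two-sided exact permutation test, 5 against 5, p = 0.833).

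Replicate 3 differed from its group in both size and kind. On the log2 scale, relative to the saline mean, its acute phase genes averaged 2.55, against 0.98 to 1.73 in the other diclofenac livers, and its neutrophil markers 3.93, against 0.68 to 2.14. Other lists also lay further from the saline mean in this liver than in the other 4 of its group. Interleukin-1 and NF-kB genes averaged 2.47 (others 0.26 to 0.47), Fc receptors and phagocyte oxidase 2.27 (0.09 to 0.60) and sterol synthesis genes 1.80 (-0.12 to 0.12). Male-biased liver genes averaged -2.57 (others -0.30 to -0.07), carboxylesterases -2.24 (-0.42 to -0.15), fatty acid oxidation genes -1.61 (-0.56 to -0.10) and P450 families 1 and 2 -1.24 (-0.02 to 0.17). Its 8 general hepatocyte markers summed to 640377, within the range of the other livers. Its pericentral markers summed to 118333, against 134195 to 187649 in the others, and its periportal markers to 138422, against 150726 to 181983, so that both zonal sums were the lowest of the 10 livers.

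Single genes of replicate 3 were orders of magnitude away from the rest. A2m, an alpha-2-macroglobulin that is a weak acute phase gene in mice, was at 90009, against 10.9 to 113 in the other 9 livers. Reg3b and Reg3g, antimicrobial lectins of the gut and of inflamed liver and pancreas, were at 32540 and 30064, against 52.4 to 104 and 4.20 to 11.8. Ces1d, a carboxylesterase, was at 182, against 10929 to 20638. The summed intestine markers were 65180 in this liver and 4692 to 10882 in the others, a sum that Reg3b and Reg3g, both on that list, carried. Fabp2, the intestinal fatty acid binding protein on the same list, was at 2379 in replicate 3, against 4488 to 10662 in the others. The summed pancreas markers of replicate 3, 817, lay below the 998 to 1386 of the others. The cause of its distance from the group was not tested.

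**Figure D4:**
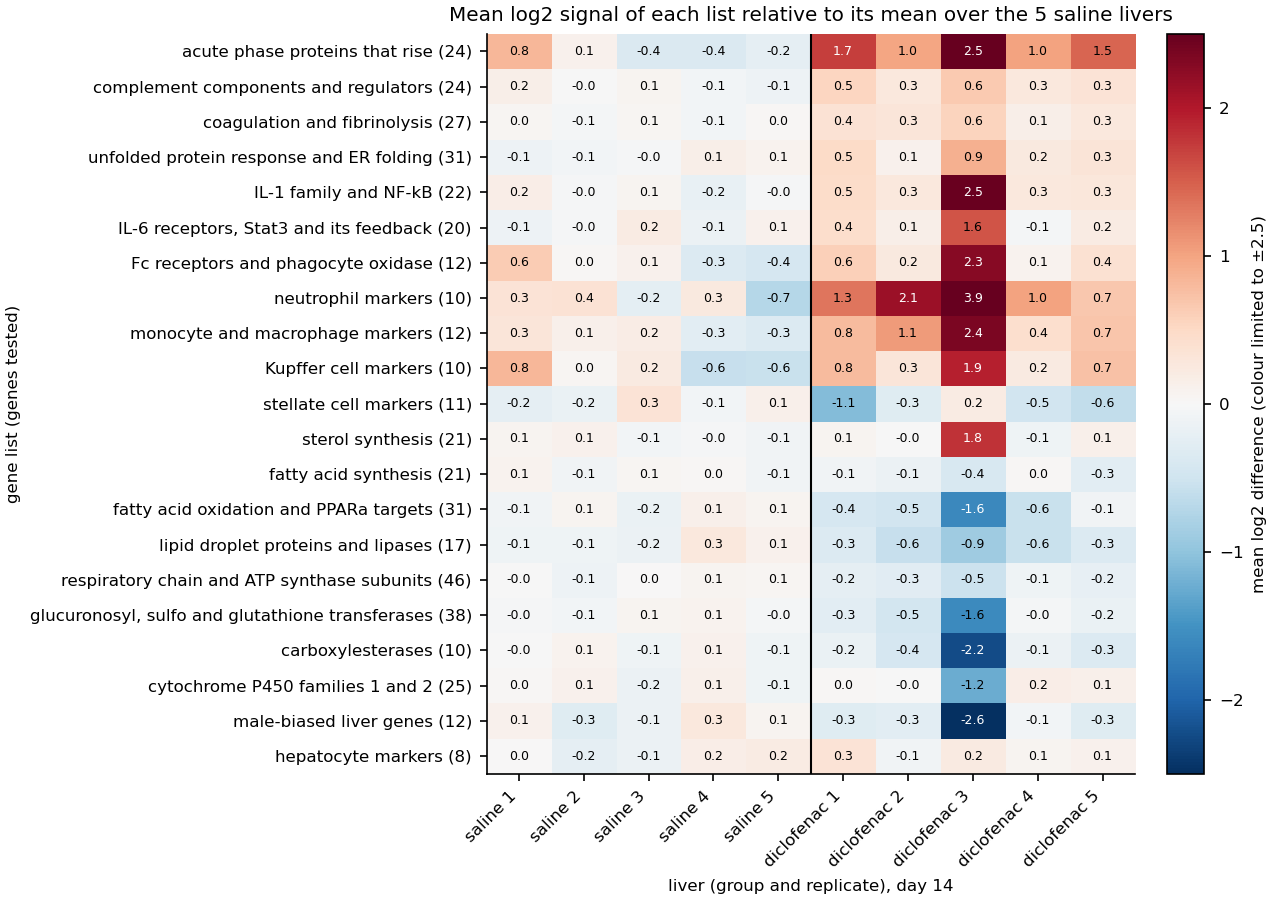
Mean log2 signal of the tested genes of 21 lists (rows, number of genes in brackets) in each day 14 liver (columns), relative to the mean of the 5 saline livers. Red is higher and blue lower. Replicate 3 of the diclofenac group departs from the other diclofenac livers in most lists, with 2.47 for interleukin-1 and NF-kB genes and -2.57 for male-biased genes, whereas the 8 general hepatocyte markers vary little.

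Whether the effect of 14 doses differed from that of the earlier days was tested in a model of all 22 arrays, in which diclofenac had been compared with saline of the same day in 3 against 3 livers at day 1 and at day 3. The day 14 effect differed from the average effect at days 1 and 3 in 3 of 13340 genes (0.0225%, limma, 861 with an unadjusted p under 0.05), and in 17 without replicate 3 (1338 with an unadjusted p under 0.05). The acute phase genes were not among the 3. Apcs had effects of 1.72, 1.95 and 2.5 at days 1, 3 and 14 (adjusted p of the difference 0.907), Lcn2 of 4.44, 4.21 and 3.91 (0.974) and Chil3 of 4.87, 5.09 and 4.99 (0.999). The medians of the acute phase list were 0.78, 0.89 and 1.20.

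Fetub was one of the 3 genes. Its effects were 0.11, 0.15 and 0.80 at days 1, 3 and 14, a difference of 0.67 (standard error 0.11, adjusted p = 0.0417, limma), and its saline signals of 13600 to 13760 at day 1, 13330 to 15090 at day 3 and 12310 to 15350 at day 14 spanned similar ranges on the 3 days. The difference of Fetub missed the threshold with median centring (0.71, adjusted p = 0.127, limma), quantile normalization (0.61, adjusted p = 0.0552), no filter (adjusted p = 0.0714), the mean of all probe sets (0.0537), no variance trend (0.123) or a replicate block (0.11), and without any single array of day 14 except saline liver 5 or diclofenac liver 3 or 5. Slc25a22, a mitochondrial glutamate carrier, had effects of 0.57, 0.13 and -0.82 and Arid5b, a transcriptional cofactor, of -1.22, -0.72 and 0.55 (adjusted p of the difference 0.0417 for both). Arid5b missed the threshold under the same settings as Fetub, and Slc25a22 with median centring, no filter or no variance trend and without saline liver 1, 3 or 4 or diclofenac liver 2 or 4. For both genes the saline livers themselves differed between days. Slc25a22 was at 1529 to 1553, 2610 to 2912 and 3672 to 6009 in saline livers of days 1, 3 and 14, and Arid5b at 3757 to 4783, 4359 to 4848 and 1222 to 2066. Apoa4 was likewise at 3654 to 6385, 4338 to 4691 and 21620 to 31210 in saline livers, so that its lower level with diclofenac at day 14, 6480 to 19650, still lay above the highest value of either group at day 1, 6385. Its effects of -0.07, 0.71 and -1.18 differed with an adjusted p of 0.0636, and of 0.0240 without replicate 3.

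Larger effects at day 14 did not always pass this test. Moxd1 had effects of 1.92, 1.44 and 5.26 and Krt23 of -1.19, -2.04 and -4.92 (adjusted p of the difference 0.542 and 0.537, limma), and both have signals near the floor of the array in one group. Slc30a3 had 0.09, 0.19 and -1.94 (adjusted p = 0.570). Irf2, an interferon regulatory factor chosen after its values were seen, had -0.22, -0.25 and 0.51, with an adjusted p of 0.399 with all arrays and 0.0081 without replicate 3, where its signal of 1053 lay below the saline livers and not above them as in the other 4 diclofenac livers. The number of doses and any other difference between the animals or arrays of the 3 days cannot be told apart.

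**Figure D5:**
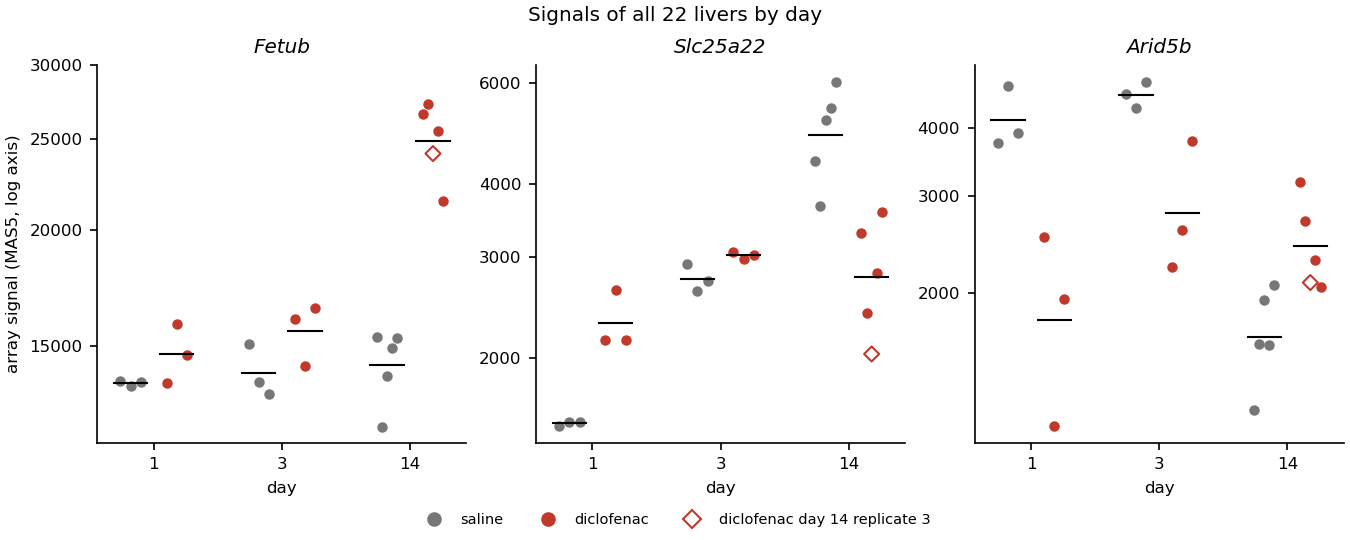
Array signal (log axis) of Fetub, Slc25a22 and Arid5b in all 22 livers on days 1, 3 and 14. Grey dots are saline livers, red dots diclofenac livers, the open diamond replicate 3 of day 14 and lines geometric means of all livers of a group. Fetub is at 21468 to 27286 with diclofenac at day 14 and lower elsewhere, whereas the saline level of the other genes differs between days.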

How the data were processed

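The methods state MAS5 and a global median normalization, and the authors deposited linear signal intensities for 45101 probe sets. The trimmed mean of each array was 500.0, whereas the medians of the day 14 arrays differed (77.1 to 89.9). The deposited signals were thus scaled to a common trimmed mean and not to a common median. No detection calls or scan dates were used. Of the probe sets, 34958 have 1 gene symbol, 932 several and 9211 none, and only those with 1 symbol were kept, taking per gene the set whose mean signal was highest. Signals were taken to log2 as deposited, and 11900 genes above the array median in at least 3 of the 10 arrays were tested in limma 3.58.1 under R 4.3.3 (moderated variances with a trend, two-sided, Benjamini-Hochberg adjusted p under 0.05). The 9-array fit kept the same genes. Exact permutation tests are two-sided over livers and were made in Python 3.11.15 with scipy 1.17.1. Groups came from the sample labels. The comparison, the gene lists and the rule for named genes were chosen with earlier results of these data known. The rule took, among genes whose groups did not overlap, the largest changes that passed or else the smallest p. It also took the smallest p of each list and genes apart in replicate 3. Genes outside the rule are said to be chosen after their values were seen. Fits were tested on simulated data with independent normal noise, spreads taken without replicate 3 and no outlying liver. That simulation cannot show how the fits behave with a liver such as replicate 3 or with genes that vary together. Alternatives were other filters, scalings, probe set choices and variance models, array weights, the methods' t-test and thresholds, a replicate block, 1 model of all days and leaving out each array.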

Additional observations from a re-analysis of the deposited data

Results flagged for a closer look

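In 110 genes picked for the report, the highest or lowest liver of each group of 5 was compared with the rest on the log2 scale. Not all of these genes are described above, and some were picked because they stood apart in replicate 3. The measure was the gap of that liver to the nearest one over the range of the group, with a limit of 0.71 (Dixon). Chance alone would pass this limit in about 5 of 100 groups of genes not picked by their values. Of the 220 groups, 38 passed, and in 35 of them the liver was replicate 3 of the diclofenac group.

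Replicate 3 was the highest liver of its group in Reg3b (0.97), A2m (0.96), Ier3, Slc13a5 and Reg3g (0.95 each), Tnfaip3 (0.94), Il1rn (0.90), Slc10a6 (0.88), Cd14 (0.87), Cxcl13 (0.86), Sqle (0.85), Id1 (0.83), Nfkbiz and Tifa (0.79 each), Serpinf2 (0.76), Marco (0.75), and Steap4, Egr1 and Prelp (0.72 each). Among these are genes of inflammation, such as Il1rn, the natural antagonist of interleukin-1, at 19829 against 191 to 307 in the other diclofenac livers, and Sqle, squalene epoxidase of sterol synthesis, at 7526 against 147 to 264.

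It was the lowest liver of its group in Cyp8b1 (0.97), Rdh16 (0.95), Ehhadh (0.93), Ces1d (0.92), Fam89a (0.91), Etnppl (0.89), Hsd3b5 (0.83), Cyp2c29 (0.81), Ces1f and Acot1 (0.80 each), Ces1e (0.79), Ugt2b1 (0.76), Gsta2, Elovl5 and Cyp3a11 (0.75 each) and Me1 (0.73). Most of these are enzymes of hepatocyte metabolism. Hsd3b5, a steroid dehydrogenase of male liver, was at 5.81 in replicate 3, against 551 to 1385 in the other diclofenac livers and 370 to 547 in saline livers. The genes chosen for their distance in replicate 3 had to pass, so the number of genes that passed is no measure of how many would do so over the array. The cause was not tested.

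The other livers that passed were diclofenac replicate 1, the lowest in Atp5o (0.77), saline replicate 2, the highest in Egr1 (0.74), and saline replicate 4, the lowest in S100a9 (0.85). The last value, 10.2, is far below the array median.

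The day 14 effect differed from the average effect at days 1 and 3 in limma's test for Arid5b (difference 1.51 on the log2 scale), Slc25a22 (-1.17) and Fetub (0.67), each with an adjusted p of 0.0417 over 13340 genes. The saline levels of Arid5b and Slc25a22 differed between the days, and those of Fetub spanned similar ranges.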

How the results depend on the processing

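The count of genes that passed depended on the treatment of replicate 3 and on the variance model. With all 10 arrays, 0 genes passed, and this became 3 with quantile normalization, 15 with median centring, 2 with the array median added before log2, 1 with a replicate block, 103 with array weights (weight 0.13 for replicate 3 and 0.834 to 1.79 for the others), 133 with all groups in one model, 211 at an unadjusted p under 0.01 and 1.5-fold, and 289 by the methods' t-test at their threshold (0 after Benjamini-Hochberg). Leaving out 1 array gave 0 to 123 genes. With 9 arrays, 123 genes passed. The count was 69 with the mean of all probe sets, 74 without a filter, 75 with median centring, 40 with a replicate block, 235 at an unadjusted p under 0.01 and 1.5-fold, 286 by the methods' t-test (0 after Benjamini-Hochberg), 0 without a variance trend, and between 142 and 157 for the other settings. Leaving out a further array gave 28 to 108 genes, with the lowest counts without saline replicate 3 (53), 4 (44) or 5 (81) or without diclofenac replicate 1 (28), 2 (58), 4 (69) or 5 (79). The signs of the 123 genes held under each setting that gave them a value, except with the mean of all probe sets, where 119 of 121 kept theirs. Among the 36 genes examined one by one, the single reversal was Cpt2 under that setting (0.12). Their calls were kept in 0 of 36 without a variance trend or by the methods' t-test after adjustment, in 21 with the block, 27 with the mean of all probe sets, 29 with median centring, no filter or one model, 33 to 36 with the other settings, and 15 (without diclofenac replicate 1) to 32 (without saline replicate 2) when a further array was left out. The difference between days, with 3 genes, gave 0 without a filter, with median centring or without a variance trend, 1 with quantile normalization, the mean of all probe sets or a block, 7 with the higher filter, 14 with array weights, 117 at the looser threshold and 0 to 17 when 1 array was left out. The RNA quality ratio differed by 0.085 after quantile normalization (two-sided exact permutation test, 5 against 5, p = 0.111). Without replicate 3 the ratio differed by 0.123 (exact permutation test, 4 against 5, p = 0.0317). The hybridisation controls differed by 0.183 after quantile normalization (exact permutation test, 5 against 5, p = 0.0397). Without replicate 3 they differed by 0.161 (exact permutation test, 4 against 5, p = 0.0873). Residuals of equally numbered livers correlated at -0.149 to 0.13, over 0.1 in 1 of 5 pairs, and not every liver correlated best with its own number. Replicates 3 (0.13 against 0.067) and 4 (0.069 against 0.065) did so. These correlations cannot decide whether replicate numbers pair the mice or arrays, and the replicate block stands as an alternative. Where no cause is named, the cause was not tested. Signals near or below the array median limit the size of changes such as those of Moxd1, Chil3 and Krt23.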
